A study of Mus musculus with 6 samples.

Results

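The 44 genes described here encode proteins that carry a cell through mitosis: the cyclins and kinases that start it, the motors, kinetochore and checkpoint proteins that sort the chromosomes, and the enzymes that end it. They were taken as a list of gene symbols, and the rule that picks them uses no measured value, although the list was drawn up with earlier results of these data known. Of the 44, 43 had at least 1 probe set that carries no other gene's symbol, and Ccnb1, the gene of cyclin B1, had none and gave no value. All 43 passed the filter on dim probe sets, among 13279 genes tested in all, and 42 of them lay above its floor, an intensity of 16, on all 6 arrays. Per gene the probe set with the highest mean log2 value over the 6 arrays stood for it.

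RNA came from CD4+YFP+ T cells sorted from mouse lymph nodes, with 3 arrays from Dicerwt/lox mice (Het) and 3 from Dicerlox/lox mice (KO), lettered A, B and C. All mice of both groups carried FoxP3-GFP-hCre, a Cre recombinase expressed where Foxp3, the lineage factor of regulatory T cells, is active, and ROSA26R-YFP, which keeps a cell yellow once Cre has worked in it. The Het cells therefore also carry Cre and 1 lox copy of Dicer, the enzyme that makes mature microRNAs, and the comparison asks how the RNA of such cells differs when both copies can be deleted. The sort does not remove cells that once expressed Foxp3 and no longer do. Ages, and whether each array is a separate animal, are not given in the sources used here, so p-values cover just the spread between the arrays, which may be technical.

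Mitotic genes are transcribed in a wave. In resting cells a repressor complex that contains retinoblastoma relatives keeps them low, and in dividing cells the factors B-Myb, FoxM1 and NF-Y bring them up shortly before division, so their RNA is abundant only in cells near or in mitosis. In bulk RNA, fewer such cells and less RNA per cell cannot be told apart.

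The cells read as T cells on every array. Across the 8 named alpha beta T cell markers the summed intensity was 123854 to 132678 on Het arrays, against 102022 to 124028 in KO, and Cd4 read 4694, 5177 and 5809 on Het arrays, against 5298, 5161 and 6651 on KO arrays, each in the order A, B, C as everywhere below. Foxp3 read 9960, 8945 and 9769 on Het arrays, against 5453, 9417 and 5420 on KO arrays (log2 difference -0.55, limma, adjusted p = 0.285). Of the 6 regulatory T cell markers listed, Foxp3 among them, 4 had a positive and 2 a negative difference (median log2 0.20). Together they summed to 67247 to 76596 on Het arrays, against 79445 to 87709 in KO. Dicer1 read 1203, 1077 and 1059 on Het arrays, against 1029, 1053 and 1187 on KO arrays (log2 -0.03, adjusted p = 0.891), a log2 of 0.026 without Het A and 0.0088 without KO A. Averaging all its tested probe sets gave -0.28 (unadjusted p = 0.0134 and adjusted p = 0.121 by limma). Where its probes lie relative to the deletion was not given, so this gene checks no label. Over 29507 probe sets, 525 passed an adjusted p of 0.05 (1.78%), and that number fell to between 0 and 176 when any 1 array was left out.

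The mitosis and spindle genes lay higher in KO than in Het almost without exception, and none passed the test across all genes. Of the 43, 42 had a positive log2 difference, with a median of 1.63 against -0.03 over all genes tested. On 38 of them every KO array lay above every Het array, where 13.2% of all genes tested showed that order. By limma 0 members were higher and 0 lower at an adjusted p under 0.05 (against 1.37% and 0.956% of all genes tested), with adjusted p from 0.0894 to 0.710. At an unadjusted p under 0.05, 30 were higher and 0 lower, where the shares over all genes tested were 10.7% and 11.6%. The 30 became 28 without Het A, 37 without Het B and 20 without Het C. That count was 15 without KO A, 7 without KO B, 11 without KO C and 17 without both B arrays.

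The Het arrays differed widely among themselves on these genes. Het A was the lowest of the 6 arrays for 42 of 43 members, and KO B the highest for 42 of 43. The exception at both ends was Tpx2, lowest on KO A and highest on Het B. The median member read a log2 of 2.11 higher on Het B than on Het A and 1.75 higher on Het C than on Het A, while the medians over all genes tested were -0.04 and 0.03. For 36 of 43 members the gap from Het A to Het B was larger than the whole difference between the groups. Het B and Het C lay closer, with Het B a log2 of 0.39 above Het C at the median.

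For most members the KO arrays lay above the higher Het arrays as well. The median member was a log2 of 0.51 higher on KO A than on Het B and 0.59 higher on KO C than on Het B. KO A and KO C lay close together, with KO C a log2 of 0.09 above KO A at the median, and KO B was 0.82 above KO A. The median SD of a member's log2 values was 1.13 within Het and 0.47 within KO, where the medians over all genes tested were 0.14 and 0.15. Without Het A the median difference over the members was a log2 of 1.05, all 43 differences were smaller, and 25 of them were still at least 1. The count with every KO array above every remaining Het array was 38, a count that leaving out an array cannot lower.

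**Figure D1:**
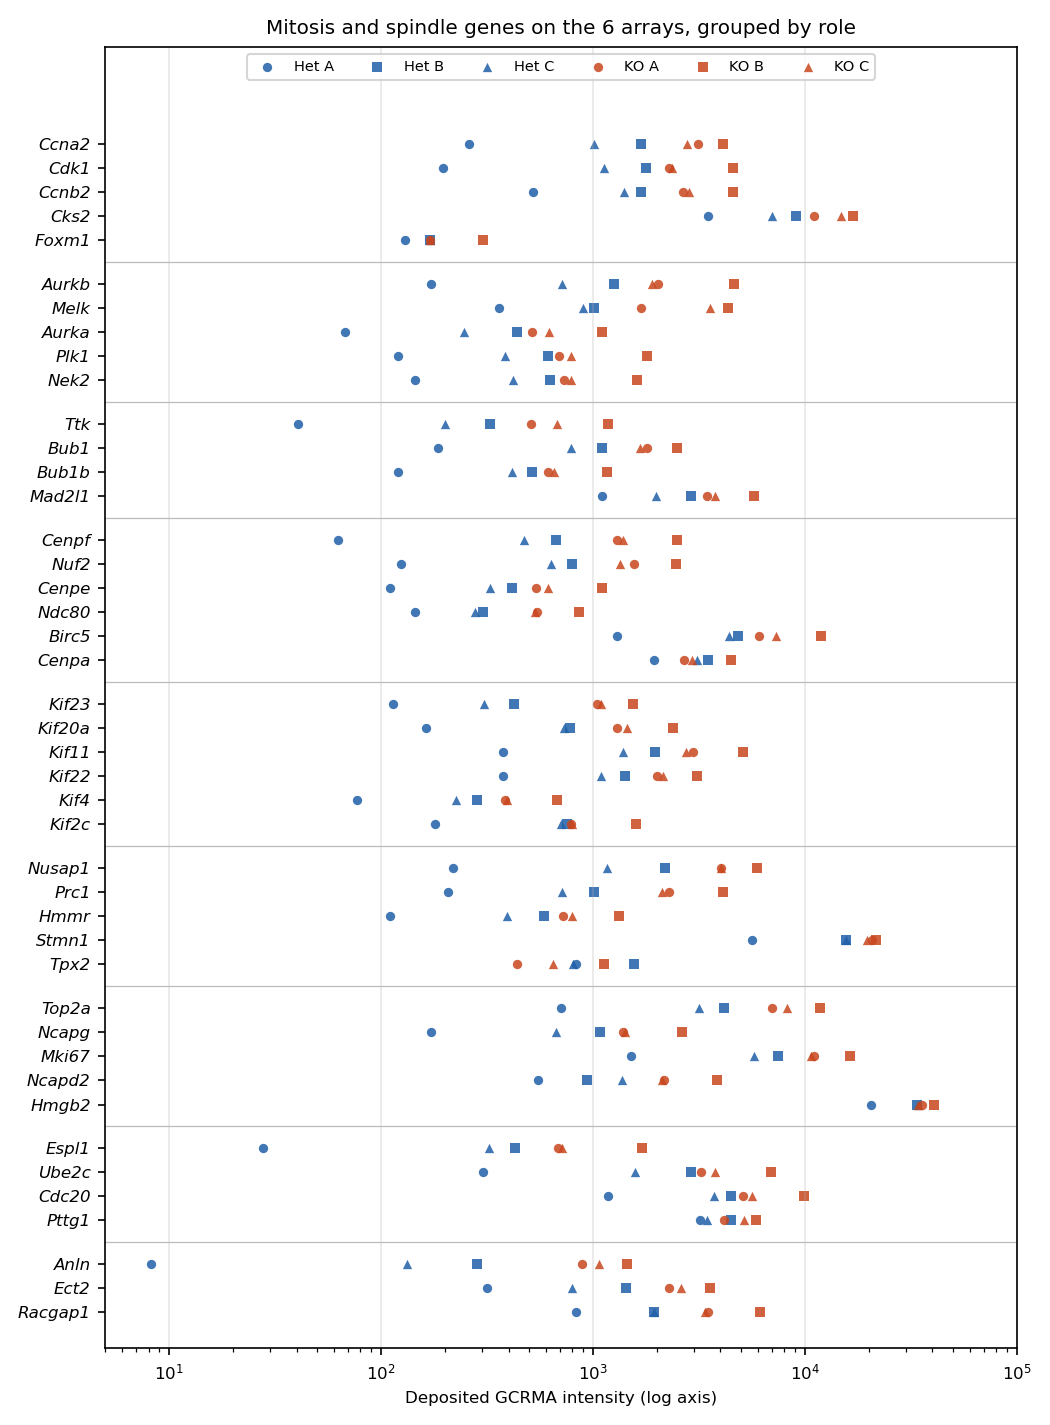
Deposited intensity of 43 mitosis and spindle genes (log axis) on each array, 1 row per gene, grouped by role in the cell, with blue for Het and red for KO and a marker shape for each letter. Blue circles (Het A) lie far to the left of the other points in most rows, and red squares (KO B) to the right.

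**Figure D2:**
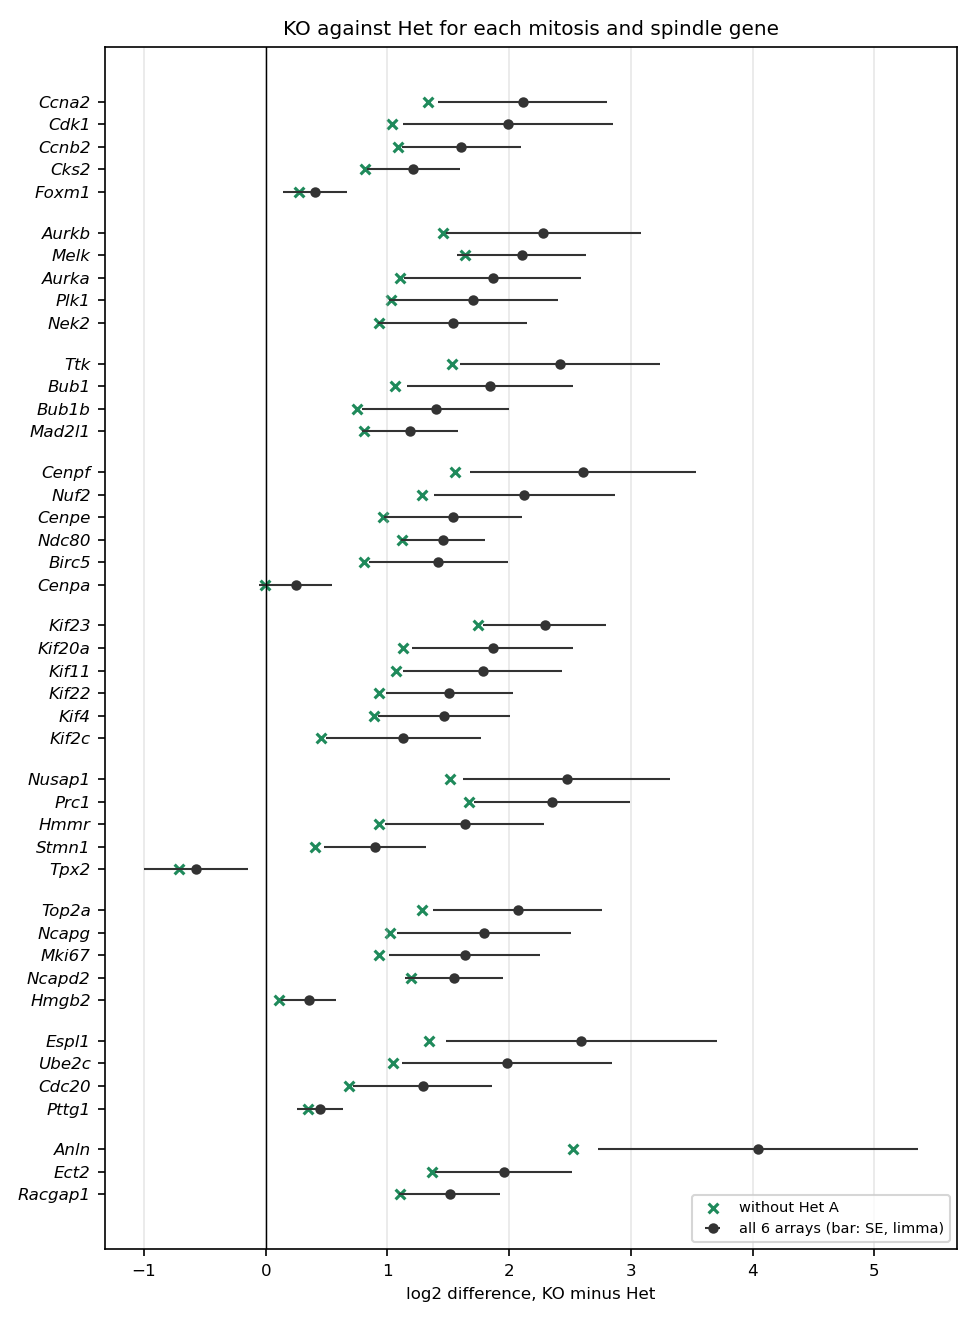
Log2 difference of KO minus Het for each of the 43 genes with all 6 arrays (points, with the standard error from limma as bars) and without Het A (crosses). The crosses lie left of the points in every row, and 41 of 43 stay above 0.

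Other values of the arrays moved with this order in part. The markers of other cells were highest on KO B: the summed intensity of 11 named B cell markers was 1389 to 3566 on Het arrays, against 2448 to 5999 in KO, that of 2 CD8 T cell markers 651 to 2257 and 636 to 4415, that of 6 NK cell markers 1067 to 1798 and 1769 to 6026, and that of 12 myeloid markers 618 to 1503 and 1046 to 6107. In each of these lists Het B was the highest Het array and KO B the highest KO array. On A and C arrays alone, in that order, the B cell sum read 1445 and 1389 in Het, against 2708 and 2448 in KO. The NK cell sum read 1067 and 1446 in Het, against 2098 and 1769 in KO. The myeloid sum read 618 and 715, against 1046 and 2119, and the CD8 sum 909 and 651, against 670 and 636. Except for the CD8 sum, leaving out the B arrays therefore does not level these sums. Without both B arrays the members' median difference was a log2 of 1.86. On 39 of 43 every remaining KO array lay above every remaining Het array, a count that leaving out arrays cannot lower.

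None of the 8 B cell, 2 CD8, 4 NK and 8 myeloid markers tested passed (limma), where 1.37% of all genes tested were higher and 0.956% lower. Most had a positive difference: 6 of 8 B cell (median log2 0.32), 2 of 2 CD8 (0.14), 3 of 4 NK (0.84) and 8 of 8 myeloid markers (1.34). Over all genes tested 43.4% were positive, with a median of -0.03. At an unadjusted p under 0.05, 1, 0, 2 and 1 were higher and 0 lower, where 10.7% and 11.6% of all genes were. Markers of antibody-secreting cells were mixed: of 7 tested, 4 had a positive and 3 a negative difference. The 8 named plasma cell markers summed to 11764 to 13368 on Het arrays, against 17270 to 24526 in KO, and Jchain, the joining chain of secreted antibody, read 11.5, 163 and 13.6 on Het arrays, against 389, 3197 and 2623 on KO arrays (log2 5.66, limma, adjusted p = 0.101). Xbp1, a factor of secretory cells that T cells also express, rose by a log2 of 0.89 (adjusted p = 0.0270), a call that ended without Het A, Het B, Het C, KO B or KO C (adjusted p 0.0737 to 0.105) and without both B arrays (0.155). Xbp1 makes up most of the plasma cell sum on each array. The other positive markers were Mzb1 at a log2 of 1.65 and Prdm1 at 0.77 (limma, adjusted p = 0.243 and 0.172). Sdc1, the surface marker of plasma cells, gave a log2 of -0.09, Irf4 -0.33 and Derl3 -0.08 (adjusted p = 0.565, 0.508 and 0.753). Tnfrsf17 did not pass the filter on dim probe sets. The 6 named germinal centre B cell markers summed to 4484 to 5316 on Het arrays, against 3942 to 4753 in KO. Of the 4 tested, 2 had a positive and 2 a negative difference. Among them Mybl1, also listed with the regulators below, rose by a log2 of 1.59 (limma, adjusted p = 0.0489). Of the erythroid markers Hba-a1, and of the immature thymocyte markers Rag1, Rag2 and Dntt, did not pass the filter on dim probe sets. The log2 ratio of the 3' to the 5' beta-actin control, a sign of RNA length, was 0.58 to 0.95 on Het arrays, against 0.50 to 1.10 in KO, highest on KO B, and 0.77 on Het A. The part of other cells and of RNA length in the members' values was not tested further. In a fit that holds the beta-actin ratio as a covariate the median difference over the members was 1.66. Members higher at an unadjusted p under 0.05 (limma) numbered 23 in that fit, against 30 without the covariate. Of 13279 genes tested, 1625 were higher at that p with the covariate.

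**Figure D3:**
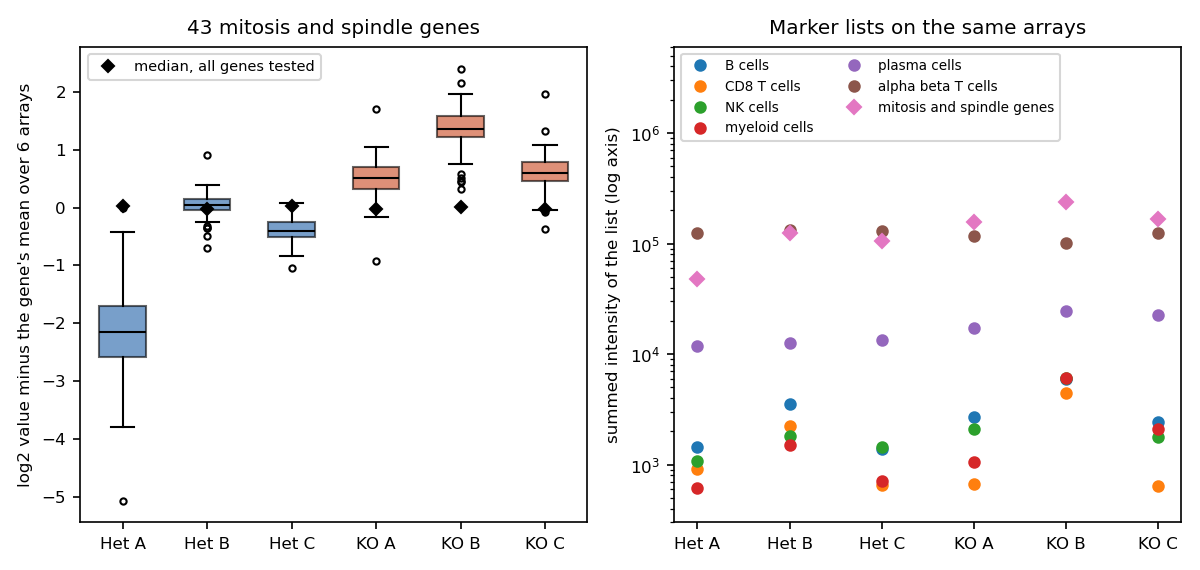
Left, log2 value of each of 43 mitosis and spindle genes minus its mean over the 6 arrays, as boxes (median, quartiles, whiskers to 1.5 times the interquartile range) per array, with the median over all genes tested as diamonds. Right, summed intensity of these genes and of marker lists on the same arrays (log axis); the Het A box lies lowest at a median of -2.15 and the KO B box highest at 1.36, and the B arrays stand high for B cell, CD8, NK and myeloid markers.

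The promoters of these genes share short sequences that the list did not use. A window from 250 bases before to 50 bases after the gene's start was available for 38 of the 44 genes (RefSeq, GRCm38.p6), and 6 genes (Aurkb, Ccna2, Foxm1, Kif20a, Stmn1 and Tpx2) had none in the table. A cell cycle homology region (CHR), the element bound by the repressor and B-Myb complexes, was searched as TTTGAA or TTCGAA and the box of NF-Y as CCAAT, both on either strand. Adjoining matches can share their end bases, as in a CCAAT that runs into TTTGAA. The CHR letters stood in the windows of 28 of the 38 genes (73.7%), against 16.5% of 10712 tested genes with a window, and in 21.7% of all 27025 genes with one. CCAAT stood in 29 of 38 (76.3%, against 42.4% of tested genes), more than 1 CCAAT in 20 (52.6%, against 16.1%), and both motifs in 25 (65.8%, against 6.64%). Other genes of mitosis came near the members, with CHR letters in 65.2% of 66 genes, CCAAT in 65.2% and both in 47.0%. Such a match is a description of the letters and not of a bound site.

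Shown here are the 100 bases just before the start of 6 of the 10 members with CHR letters within the last 40 of those bases. No rule picked the 6, and Cdc20, Hmgb2, Kif11 and Ncapg are left out. Melk and Mad2l1, whose windows hold neither motif, follow. Capitals mark both motifs, in either orientation.

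Cdk1, chr10:69352913-69353012, - strand: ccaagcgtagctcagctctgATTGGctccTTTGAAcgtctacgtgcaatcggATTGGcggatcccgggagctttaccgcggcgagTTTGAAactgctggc
Top2a, chr11:99024190-99024289, - strand: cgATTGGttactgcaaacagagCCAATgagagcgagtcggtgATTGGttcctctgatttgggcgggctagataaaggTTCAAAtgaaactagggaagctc
Kif22, chr7:127042421-127042520, - strand: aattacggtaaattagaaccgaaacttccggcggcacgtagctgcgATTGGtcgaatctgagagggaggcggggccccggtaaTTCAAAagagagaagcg
Prc1, chr7:80294376-80294475, + strand: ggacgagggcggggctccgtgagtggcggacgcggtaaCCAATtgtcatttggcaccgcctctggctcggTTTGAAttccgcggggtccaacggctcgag
Ube2c, chr2:164769829-164769928, + strand: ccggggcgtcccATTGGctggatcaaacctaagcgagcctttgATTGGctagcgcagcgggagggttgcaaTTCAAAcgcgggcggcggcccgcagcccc
Espl1, chr15:102296193-102296292, + strand: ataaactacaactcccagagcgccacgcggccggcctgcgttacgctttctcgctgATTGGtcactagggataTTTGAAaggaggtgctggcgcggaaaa
Melk, chr4:44300817-44300916, + strand: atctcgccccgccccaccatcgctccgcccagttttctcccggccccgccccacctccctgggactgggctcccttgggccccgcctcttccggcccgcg
Mad2l1, chr6:66535121-66535220, + strand: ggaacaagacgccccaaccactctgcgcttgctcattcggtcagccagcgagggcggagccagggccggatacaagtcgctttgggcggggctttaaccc

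In the 6 upper sequences a CCAAT box, mostly read as ATTGG, lies upstream of the CHR letters nearest the start. The members whose windows hold neither motif (Birc5, Mad2l1, Melk, Nuf2, Nusap1 and Pttg1) had log2 differences from 0.45 to 2.47, inside the range of the others.

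**Figure D4:**
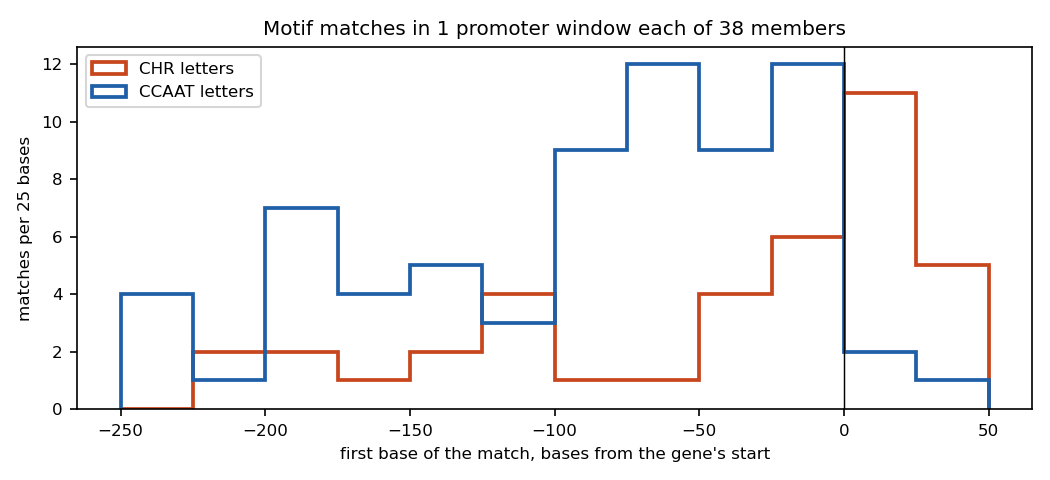
Number of CHR (red) and CCAAT (blue) matches per 25 bases along 1 promoter window each of 38 members, by distance of the first base of the match from the gene's start. CHR matches peak in the 25 bases after the start, with 11, and CCAAT matches lie mainly in the 100 bases before it, with 9 to 12 per 25 bases.

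Among cyclins and their partners, which switch the cell into mitosis, 4 of 5 measured genes had no overlap between groups. For this and every role group below, 13.2% of all genes tested had every KO array above every Het array. Ccnb2, the gene of cyclin B2, read 523, 1678 and 1402 on Het arrays, against 2660, 4598 and 2848 on KO arrays (log2 difference 1.61 with an SE of 0.49, adjusted p by limma = 0.166). Cks2, a small subunit of the cyclin-dependent kinase, read 3512, 9053 and 7009 on Het arrays, against 11078, 16952 and 14752 on KO arrays (log2 1.21 ± 0.38, adjusted p = 0.175). On both genes the lowest KO array lay above the highest Het array. Cdk1, the kinase itself, had a log2 difference of 1.99 and Ccna2, cyclin A2, one of 2.11. Foxm1, the transcription factor of the wave, gave the smallest difference here, with 130, 171 and 171 on Het arrays, against 171, 302 and 171 on KO arrays (log2 0.41, adjusted p = 0.471). Its probe set read the same value on Het B, Het C, KO A and KO C, whereas another Foxm1 probe set read 31.2, 156 and 107 on Het arrays, against 321, 646 and 298 on KO arrays (log2 2.30, adjusted p = 0.150).

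The mitotic kinases gave no overlap for any of 5 genes, with differences from 1.53 to 2.28. Melk, a kinase of dividing cells, read 361, 1014 and 898 on Het arrays, against 1688, 4348 and 3565 on KO arrays (log2 difference 2.10 with an SE of 0.53, adjusted p by limma = 0.116). Aurkb, the Aurora B kinase that corrects faulty attachments of chromosomes, read 172, 1260 and 718 on Het arrays, against 2037, 4621 and 1894 on KO arrays (log2 2.28 ± 0.80, adjusted p = 0.210). For Aurkb the Het values alone spanned a wider fold than the KO values. Plk1, Polo-like kinase 1, which drives spindle formation, read 120, 613 and 387 on Het arrays, against 695, 1803 and 789 on KO arrays (log2 1.71, adjusted p = 0.265). Aurka, Aurora A of the spindle poles, and Nek2, a centrosome kinase, had log2 differences of 1.86 and 1.53.

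The 4 spindle checkpoint genes, which hold anaphase back until every chromosome is attached, also separated the groups. Mad2l1, the gene of the checkpoint protein Mad2, read 1106, 2897 and 1990 on Het arrays, against 3440, 5738 and 3770 on KO arrays (log2 difference 1.18 with an SE of 0.39, adjusted p by limma = 0.195). Ttk, the kinase Mps1 that starts the signal, read 40.7, 327 and 201 on Het arrays, against 510, 1185 and 676 on KO arrays (log2 2.42 ± 0.82, adjusted p = 0.200). Het B and Het C were both above Het A by a larger factor than KO A was above Het B. Bub1b, the gene of BubR1, gave a log2 of 1.40 (adjusted p = 0.289) and Bub1, its partner kinase, 1.84.

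Kinetochore proteins tie microtubules to the chromosomes, and the passenger protein survivin, encoded by Birc5, guides Aurora B there. Ndc80, the microtubule-binding subunit of the outer kinetochore, read 144, 304 and 277 on Het arrays, against 545, 864 and 533 on KO arrays (log2 difference 1.46 with an SE of 0.35, adjusted p by limma = 0.106). Nuf2, its partner, read 124, 795 and 634 on Het arrays, against 1560, 2461 and 1344 on KO arrays (log2 2.12 ± 0.74, adjusted p = 0.211). Neither gene had a Het array at the level of a KO array. Cenpf (log2 2.61), Cenpe, a kinetochore motor (1.54), and Birc5 (1.42) had no overlap either. Cenpa, the histone that marks the centromere, read 1950, 3509 and 3115 on Het arrays, against 2689, 4490 and 2939 on KO arrays, overlapping (log2 0.25, adjusted p = 0.710), and its difference was -0.0088 without Het A. Dimmer Cenpa probe sets gave a log2 of 0.40 and, with the opposite sign, -0.15.

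All 6 kinesin motors separated the groups. Kif23, a motor of the central spindle, had the smallest p of all members: it read 114.5, 424.5 and 306.4 on Het arrays, against 1041, 1542 and 1089 on KO arrays (log2 difference 2.29 with an SE of 0.50, adjusted p by limma = 0.0894). Its lowest KO array stood a log2 of 1.29 above its highest Het array, and its difference without Het A was 1.74. Kif22, a motor on chromosome arms, read 376, 1415 and 1094 on Het arrays, against 2016, 3102 and 2146 on KO arrays (log2 1.51, adjusted p = 0.205). Kif20a (1.86), Kif11, which pushes the spindle poles apart (1.78), and Kif4 (1.46) came next. Kif2c, which takes microtubules apart, was the narrowest: it read 180, 754 and 707 on Het arrays, against 785, 1603 and 801 on KO arrays (log2 1.13, adjusted p = 0.408), so that KO A lay only a log2 of 0.06 above Het B. Dimmer Kif2c probe sets gave a log2 of 1.44, 0.09 and, with the opposite sign, -0.03.

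Proteins of the spindle and its microtubules included the only member with a negative difference. Prc1, which bundles microtubules in the midzone, read 206.5, 1017 and 717 on Het arrays, against 2276, 4135 and 2120 on KO arrays (log2 difference 2.35 with an SE of 0.64, adjusted p by limma = 0.136). Nusap1, a spindle protein that binds microtubules near chromosomes, read 219, 2188 and 1172 on Het arrays, against 4017, 5924 and 4032 on KO arrays (log2 2.47 ± 0.85, adjusted p = 0.203). In both, KO A and KO C stood clear of Het B. Hmmr gave a log2 of 1.63, and Stmn1, stathmin, which binds free tubulin, one of 0.90. Tpx2, which activates Aurora A on the spindle, was that member, at 831, 1562 and 805 on Het arrays, against 437, 1125 and 647 on KO arrays (log2 -0.57, adjusted p = 0.534).

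The Tpx2 probe sets disagreed. A dimmer one read 150, 699 and 585 on Het arrays, against 1312, 2386 and 1312 on KO arrays (log2 2.02, limma, adjusted p = 0.177), and another gave a log2 of 2.08, with no overlap between groups on either. The remaining one gave -0.28. The brightest probe set thus stood for Tpx2 by rule, and both probe sets with a positive difference followed the order of arrays seen in the other members. The mean of all Tpx2 probe sets gave a log2 of 0.81 (adjusted p = 0.413).

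Genes of chromosome structure included the common proliferation markers. Ncapd2, a condensin subunit that compacts chromosomes, read 552, 943 and 1378 on Het arrays, against 2178, 3855 and 2118 on KO arrays (log2 difference 1.54 with an SE of 0.40, adjusted p by limma = 0.125). Top2a, the topoisomerase that untangles sister chromatids, read 706, 4148 and 3160 on Het arrays, against 6975, 11863 and 8258 on KO arrays (log2 2.07 ± 0.70, adjusted p = 0.198). Mki67, the gene of the Ki-67 antigen used to count dividing cells, read 1510, 7452 and 5736 on Het arrays, against 11051, 16320 and 10681 on KO arrays (log2 1.63, adjusted p = 0.241). Its Het A value lay far below both other Het arrays, which in turn lay below every KO array. Ncapg, a second condensin gene, had a log2 difference of 1.79.

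Hmgb2, a DNA-bending chromatin protein, overlapped on its brightest probe set, with 20470, 33856 and 34412 on Het arrays, against 35783, 40523 and 34246 on KO arrays (log2 0.35, limma, adjusted p = 0.465). Another bright one read 14736, 24462 and 21301 on Het arrays, against 34484, 34940 and 31118 on KO arrays, without overlap (log2 0.76, adjusted p = 0.125). The dim Hmgb2 probe set read 167, 194.5 and 303 on Het arrays, against 609, 740 and 561 on KO arrays (log2 1.56 ± 0.25, SE, adjusted p = 0.0501), the smallest adjusted p of any member probe set. The threshold was missed there too. Over all 86 tested probe sets of the members 82 were positive. On 67 every KO array lay above every Het array, where 13.2% of genes tested showed that order. By limma 0 passed, against 1.78% of all probe sets tested, and 54 had an unadjusted p under 0.05. At that p 10.7% of genes tested were higher and 11.6% lower. The shares for the order and for unadjusted p are over genes and not over probe sets. The 43 probe sets that did not stand for their gene had a median log2 difference of 1.22.

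Anaphase and the exit from mitosis depend on the anaphase-promoting complex, which marks securin and cyclin B for destruction. Pttg1, the gene of securin, which holds the cohesin-cutting enzyme in check, read 3218, 4489 and 3448 on Het arrays, against 4149, 5871 and 5169 on KO arrays (log2 difference 0.45 with an SE of 0.19, adjusted p by limma = 0.275). KO A lay below Het B on this probe set, so the groups overlapped. A dimmer Pttg1 probe set gave a log2 of 1.05 with no overlap (limma, adjusted p = 0.110). Another gave 0.30 with overlap (adjusted p = 0.413). Espl1, the gene of separase, the enzyme that securin restrains, read 27.6, 428 and 323 on Het arrays, against 684, 1710 and 718 on KO arrays (log2 2.59 ± 1.11, adjusted p = 0.287). Most of its Het spread came from Het A, and the difference was 1.34 without that array. Cdc20, the activator of the complex, gave a log2 of 1.29 (adjusted p = 0.298), and Ube2c, its ubiquitin-conjugating enzyme, 1.98.

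The 3 cytokinesis genes, whose products build and steer the ring that divides the cell, all separated the groups. Racgap1, a protein of the spindle midzone, read 836, 1936 and 1944 on Het arrays, against 3501, 6132 and 3387 on KO arrays (log2 difference 1.51 with an SE of 0.42, adjusted p by limma = 0.138). Ect2, needed for the ring to form, read 315, 1441 and 795 on Het arrays, against 2279, 3566 and 2594 on KO arrays (log2 1.96 ± 0.56, adjusted p = 0.149). Anln, anillin of the contractile ring, had the largest difference of any member, at 8.18, 282 and 133 on Het arrays, against 888, 1447 and 1072 on KO arrays (log2 4.04 ± 1.32, adjusted p = 0.186). Its Het A value lay under the floor of the filter, so the size of the fold is uncertain, and without Het A the difference was 2.52. A dimmer Anln probe set gave a log2 of 0.75.

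Other genes of mitosis also lay mostly higher. Of 77 tested, 70 were positive with a median log2 of 1.27, and 59 had every KO array above every Het array, against 13.2% of all genes tested. By limma 1 rose and 0 fell, where 1.37% and 0.956% of all genes did, so 1 call of 77 is about that share. Before adjustment p was under 0.05 for 44 higher and 1 lower genes, where the shares over all genes were 10.7% and 11.6%. The gene that rose was Psrc1, a microtubule-binding protein of the spindle, at 76.0, 108 and 107 on Het arrays, against 298, 506 and 361 on KO arrays (log2 1.98, adjusted p = 0.0297). Its Het values were close together. The call ended without any 1 array (adjusted p 0.0556 to 0.105) and without both B arrays (0.146). This list too depended on Het A, with a median of 0.81 without it, and Het B exceeded Het A by a log2 of 1.53 at its median.

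Lists of the anaphase-promoting complex, cohesin and tubulins had medians near 0. Over all genes tested 1.37% rose and 0.956% fell by limma, and 10.7% and 11.6% had an unadjusted p under 0.05. The anaphase-promoting complex, listed with its co-activator Fzr1 and the ubiquitin-conjugating enzymes Ube2s and Ube2d1, had a median log2 of 0.02 over 17 genes (limma, 0 passed; before adjustment p was under 0.05 for 2 higher and 3 lower genes). Ube2s, which works with the complex, gave 0.73 (adjusted p = 0.116) and Cdc26, a subunit, -0.40 (adjusted p = 0.127). Cohesin and its loaders, which hold sister chromatids together, had a median of 0.04 over 10 genes (limma, 0 passed; 2 higher and 0 lower unadjusted), with 0.34 for Pds5b and 0.36 for Stag1. Tubulins and centrosome genes had a median of -0.02 over 25 genes (limma, 0 passed; 1 higher and 2 lower unadjusted), and the beta tubulins Tubb2a and Tubb2b gave -1.40 and -1.32 (adjusted p = 0.175 and 0.129). Between Het A and Het B the medians of these lists differed by 0.06, 0.10 and 0.12.

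DNA replication genes, which act before mitosis, lay between. Of 51 tested, 47 were positive with a median log2 of 0.48, and 16 had every KO array above every Het array, against 13.2% of all genes tested. By limma 0 passed, where 1.37% of all genes rose and 0.956% fell. Before adjustment p was under 0.05 for 12 higher and 0 lower genes, where the shares over all genes were 10.7% and 11.6%. Rfc3, a subunit of the clamp loader, read 667, 851 and 960.1 on Het arrays, against 1502, 1904 and 1307 on KO arrays (log2 0.93, adjusted p = 0.0838), and Brca1, a DNA repair gene, gave 1.45 (adjusted p = 0.119). The median was 0.23 without Het A and 0.30 without KO B. Whether replication and mitosis genes differ in their response was not tested. Their promoter windows held the CHR letters in 8 of 42 genes (19.0%).

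Among 24 genes of the factors that govern the wave, 2 rose and 0 fell (limma), where 1.37% and 0.956% of all genes tested did. Before adjustment p was under 0.05 for 7 higher and 1 lower genes, where the shares over all genes were 10.7% and 11.6%. Cdkn1a, the gene of the cyclin-dependent kinase inhibitor p21, read 131, 236.5 and 180.5 on Het arrays, against 661, 646 and 1017 on KO arrays (log2 2.09, adjusted p = 0.0369), and Mybl1, the gene of A-Myb, read 45.0, 65.6 and 75 on Het arrays, against 224, 145 and 186.5 on KO arrays (log2 1.59, adjusted p = 0.0489). KO B, highest for the mitotic genes, was lowest of the KO arrays for both. Both calls ended when any 1 array was left out (adjusted p 0.0760 to 0.119 for Cdkn1a and 0.0759 to 0.147 for Mybl1), without both B arrays (0.146 and 0.157) and when dim probe sets were kept (0.0532 and 0.0675). That of Mybl1 also ended with the beta-actin covariate (0.0582) and with the mean of its probe sets (0.0772). Mybl2, the gene of B-Myb, gave 1.68 and E2f8, a repressor of the E2F family, 1.63, with Het A lowest for both (adjusted p = 0.321 and 0.354). Mybl2 and E2f8 were named after their values were seen. Of 13 cell cycle inhibitors, a list that also holds Cdkn1a, only Cdkn1a rose and 0 fell (limma), and the list's median log2 was 0.25, which became 0.66 without both B arrays and 0.68 without KO B. The median over the 24 regulators was 0.26, and 0.16 without Het A.

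**Figure D5:**
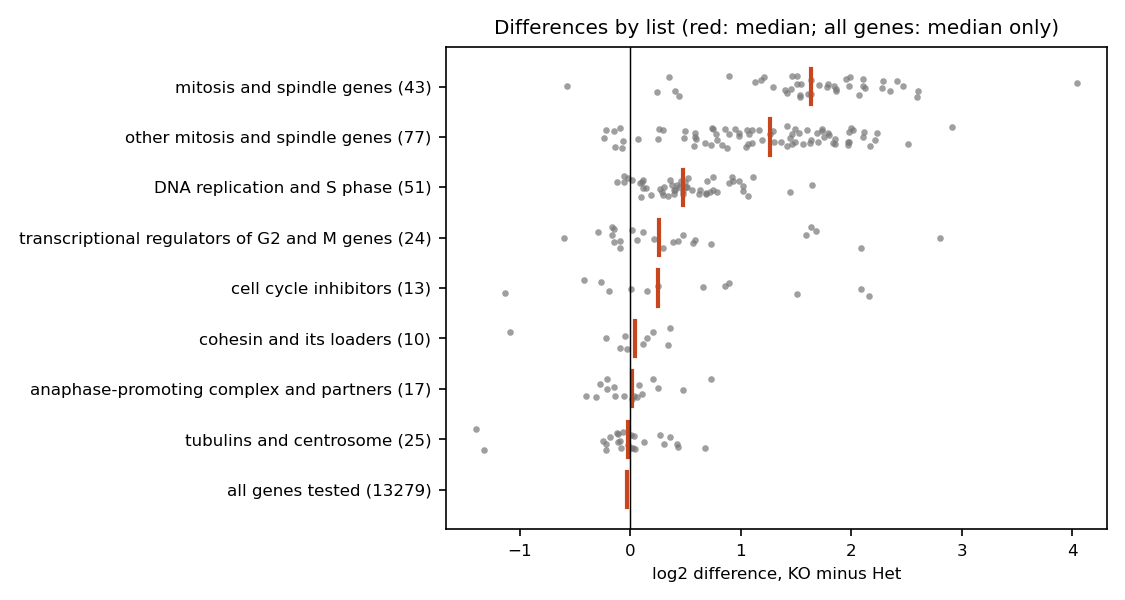
Log2 difference of KO minus Het for the mitosis and spindle genes and for lists of related genes (points: genes; red bars: medians; number of genes tested in brackets). The mitosis lists lie to the right at medians of 1.63 and 1.27, replication genes at 0.48, and the anaphase-promoting complex, cohesin and tubulin lists near 0.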

How the data were processed

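The authors deposited probe set intensities that were normalized with GCRMA per the labels, with a software version that was not given in the sources used here. GCRMA takes off a background predicted from each probe's bases and then normalizes between arrays, so folds of dim genes depend on that background. The deposited intensities are linear (1.23 to 170023), so log2 was taken. The table holds 45101 probe sets. Controls (64) and a probe set without all values (1) were not analysed, and 29507 with log2 above 4 on at least 3 of 6 arrays were tested. Probe sets with 1 symbol in the platform annotation (34958) named genes, and 18193 genes had one. Median intensities were 58.1 to 61.5 per array, and 3 arrays per group limit the precision.

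Differences of KO minus Het came from limma 3.58.1 under R 4.3.3, with lmFit and eBayes on the groups alone. Tests were two-sided and adjusted by Benjamini-Hochberg across all probe sets tested, with a threshold of 0.05. The steps were tested on simulated data. The members, lists and rules were chosen with earlier results of these data known. By rule, in each role group the 2 members with the smallest p were given on every array. The member with the largest p was given with its difference, and members with a tested probe set of opposite sign were named. From each related list up to 3 genes that passed, or the 2 with the smallest p, were named. Other members, probe sets and markers were named after their values were seen. Alternatives were a block on the letter, filters, normalizations, variance models, weights, probe set choice, an added intensity of 32, the beta-actin ratio and left-out arrays.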

Additional observations from a re-analysis of the deposited data

How the results depend on the processing

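No member passed under any of the 17 alternatives run (smallest adjusted p 0.0658 to 0.214), and the members' median log2 difference stayed positive, at 1.58 to 1.66 under other normalizations, filters, variance models, weights and probe set choices, 1.86 without both B arrays and 1.05 to 2.13 with 1 array left out. Members higher at an unadjusted p under 0.05 numbered 17 without both B arrays and 7 to 37 with 1 array left out. Every KO array lay above every Het array for 38 or 39 members in the alternatives that change the values or the arrays. Leaving out arrays cannot lower that count. Probe sets called over the whole array numbered 957 with array weights, 0 without both B arrays and 0 to 176 with 1 array left out, against 525. Among the genes named, the differences that turned were those of Cenpa (-0.0088 without Het A, in a range up to 0.42 with 1 array left out), Tpx2 (0.81 with the mean of its probe sets) and Dicer1 (0.026 without Het A and 0.0088 without KO A, in a range from -0.094 with 1 array left out, and -0.28 with the mean of its probe sets). The cause was not tested. Cell cycle inhibitors that rose numbered 3 with the stricter filter or array weights (where 1 also fell), and 2 with an intensity trend, an added intensity or the beta-actin covariate. That covariate called 2 other mitosis genes and 1 regulator. With the letter as a replicate block, 0 probe sets passed over the whole array, so the calls of Psrc1, Cdkn1a, Mybl1 and Xbp1 ended (adjusted p 0.0823, 0.101, 0.139 and 0.105), and 37 members were higher at an unadjusted p under 0.05. The letters are not said to pair arrays and are not taken to do so. The deviations of same-lettered arrays from their group means correlated at 0.28 for A, -0.17 for B and 0.01 for C. Those of unlike-lettered arrays correlated at -0.45 to 0.37. Whether same-lettered arrays share a factor was not tested further. Background limits dim values, such as those of Anln and Espl1 on Het A.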
